A study of Mus musculus with 16 samples.

Results

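Gene expression was compared between hepatic progenitor cells from Ptpn1-/- mice (KO) and from Ptpn1+/+ mice (WT), all of them given 400 µM palmitic acid for 8 h. The comparison takes 8 of the study's 16 sequencing libraries, 4 per genotype, chosen by their labels alone. It covers all 55421 genes of the deposited table, of which 15239 had at least 10 normalized counts in at least 4 of the 16 libraries and were tested. The other 8 libraries, 4 of each genotype without palmitic acid (control), are used where they are named. Cultures of either genotype were kept in DMEM plus 10% serum, and palmitic acid was added in DMEM that held 5% serum and 1% albumin; the labels name no medium for the control libraries. The labels do not say how many cell lines, clones or animals stand for each genotype, and a difference of genotype cannot be told apart from one between lines. Nor do they say that replicates were separate cultures, so the p-values measure no more than the spread among these libraries, part or all of which may be technical.

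Ptpn1 encodes PTP1B, a tyrosine phosphatase held at the endoplasmic reticulum that takes phosphate off the insulin receptor and off the kinase JAK2, and so dampens insulin and cytokine signals. Palmitic acid is a saturated fatty acid. Liver cells activate it to an acyl-CoA and then burn it in mitochondria and peroxisomes, store it in triglyceride, or build it into ceramide, and an excess is known to stress the endoplasmic reticulum. Hepatic progenitor cells, also called oval cells, lie near the bile ducts, carry biliary keratins and Sox9, and can give rise to hepatocytes and to bile duct cells.

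The 8 palmitate libraries held 24885401 to 35693442 reads in genes. In a principal component analysis of these 8 libraries component 1, with 90.24% of the variance, set the genotypes apart. Component 2 held 2.126%, with KO library 3 at one end and KO library 2 at the other. Genes of rRNA biotypes took 0.058% to 0.0624% of the reads in the WT libraries and 0.1006% to 0.1067% in the KO libraries, and mitochondrial mRNAs 3.565% to 3.798% and 3.93% to 4.22%. These shares moved with genotype, and their part in the differences below was not tested. Per the labels' protocols the starting total RNA was of low quality, was fragmented for 1 min, and is described as coming from FFPE samples, although the labels call the samples cells.

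The label was checked against markers. The progenitor markers Spp1, Krt7, Krt8, Krt18, Krt19 and Cd24a were abundant in both genotypes, while Epcam, a surface marker of oval cells, averaged 0 counts in WT and 2.6 in KO, and Prom1 averaged 22.4 and 0.81. Of 23 macrophage and leukocyte markers 19 did not pass the filter, among them Adgre1, Itgam and Tyrobp, which were at 0 in all 8 libraries. Of the 4 tested, 2 were higher in KO, 1 lower and 1 not called. Csf1r, taken as a defining marker along with Adgre1, averaged 700 normalized counts in WT and 823 in KO. The summed level of that list was 2021.5 to 2061.6 in WT and 2981 to 3380.5 in KO, most of it Cd14 and Csf1r. Of 20 endothelial markers 12 did not pass, and the list summed to 963.2 to 1049.4 in WT and 569.8 to 585.7 in KO. The members did not share a direction. Of the 8 tested, 4 were higher in KO, 3 lower and 1 not called, with 4 higher and 2 lower by at least 2-fold. The stellate cell markers Lrat and Hand2 were at 0 and Reln at or near 0, yet the wider list of stellate cell and fibroblast genes, which holds Col1a1, Col1a2 and Pdgfrb, summed to 96492.1 to 101990.2 in WT and 11700.9 to 12751.9 in KO. This difference in fibroblast-type genes moved with genotype across the results below, and its part in them was not tested.

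The targeted gene was low in every KO library. Ptpn1 (ENSMUSG00000027540.13, chromosome 2, 167932057 to 167979385, GRCm38) stood at 1852, 1828, 1861 and 1866 normalized counts in the WT libraries and 287, 298, 281 and 307 in the KO libraries. The groups did not overlap, and the KO mean was 15.8% of the WT mean. The log2 fold change was -2.65 ± 0.04 (standard error of limma on log2(count + 1), n = 4 each, as for every ± below; log2 fold changes are KO minus WT), and an exact two-sided permutation test gave p = 0.0286, the lowest value possible with 70 assignments. Counts per gene do not tell the exons to which the reads in KO belong.

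Most tested genes differed between the genotypes. With limma and Benjamini-Hochberg adjustment, 11755 of 15239 genes (77.1%) had an adjusted p under 0.05, 5811 of them higher in KO (38.1%) and 5944 lower (39%). After rescaling every library to the same total, which moved the median log2 fold change of all genes from -0.01 to -0.11, the split was 4823 higher and 7034 lower. A difference of at least 2-fold was found for 3392 genes (22.3%), 1539 higher (10.1%) and 1853 lower (12.2%). The KO and the WT libraries did not overlap for 10950 genes (71.9%). At larger folds the balance turned. At least 16-fold, 197 genes were higher and 229 lower, whereas at least 64-fold, 68 were higher and 15 lower. Counts of list members below are read against these shares. Since a gene could pass the filter through the libraries of a single genotype, every such count describes the tested members and not the whole list. Unless it is written as not called, each tested gene named here had an adjusted p under 0.05 by limma, the highest of them 0.0437, and its KO and WT libraries did not overlap except for Col4a1, Col4a2 and Hspa5.

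**Figure D1:**
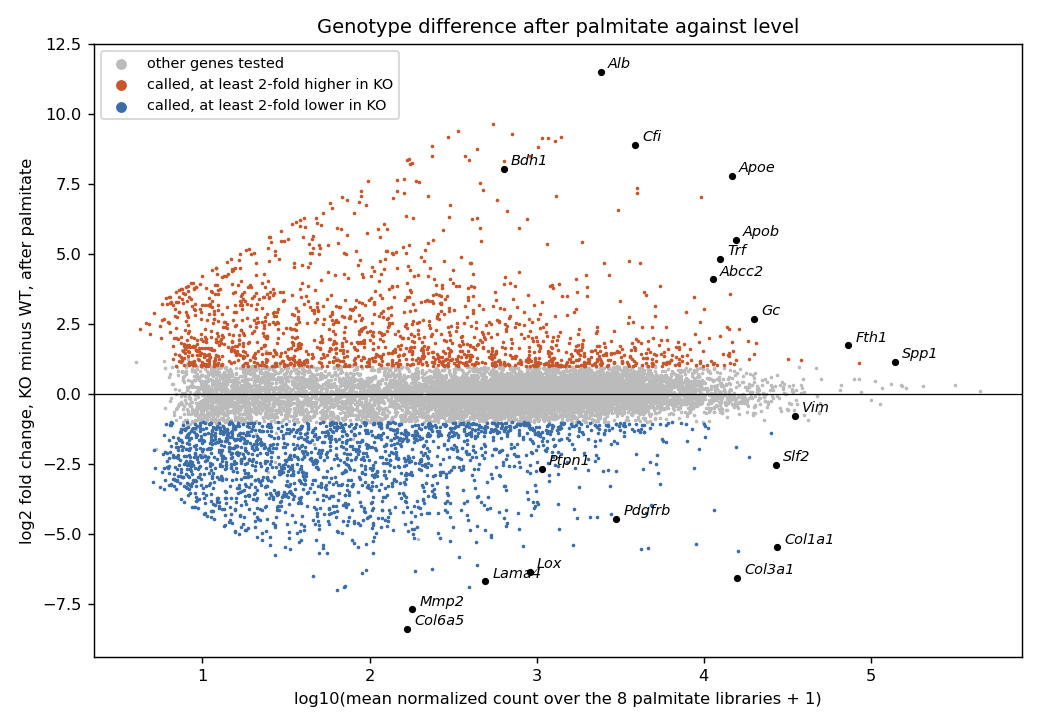
Each point is 1 of the 15239 tested genes. The horizontal axis gives its mean normalized count over the 8 palmitate libraries on a log10 scale and the vertical axis its log2 fold change, KO minus WT. Genes called and at least 2-fold different are coloured, 1539 higher and 1853 lower in KO. Secreted liver proteins such as Alb and Apoe lie at the top and collagen genes such as Col3a1 at the bottom.

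Genes for the proteins that hepatocytes release into blood made up the list with the highest median in KO. Of 64 such genes 40 passed the filter and 24 were below it. A gene could pass through the KO libraries alone, so the counts describe these 40 genes and not the list as a whole. In bulk samples fewer cells of a type and less RNA per cell cannot be told apart. Among them 34 were higher, 32 at least 2-fold, and 4 were lower, with a median log2 fold change of 2.78 against -0.01 for all tested genes. Albumin (Alb, ENSMUSG00000029368.10), the main protein of plasma, stood at 2, 1.45, 0 and 0 normalized counts in the WT libraries and 4985, 4702, 4827 and 4828 in the KO libraries. WT libraries thus held almost no albumin reads, and the log2 fold change was 11.52 ± 0.33. The complement regulator gene Cfi stood at 22, 10.2, 14.6 and 15.7 normalized counts in the WT libraries and 8594, 7262, 7571 and 7445 in the KO libraries (log2 fold change 8.90 ± 0.18). Transferrin (Trf), which carries iron, stood at 819, 840.2, 850.4 and 837 normalized counts in the WT libraries and 26097, 23419, 23468 and 23288 in the KO libraries (log2 fold change 4.84 ± 0.04). Itih2, a chain of the protein that binds hyaluronan in serum, stood at 71.1, 51.5, 74.8 and 55.3 normalized counts in the WT libraries and 6132, 6029, 6175 and 5839 in the KO libraries (log2 fold change 6.58 ± 0.09). The groups did not overlap for any of these 4 genes. Other carriers were less far apart. The vitamin D binding protein gene Gc averaged 5296 normalized counts in WT and 34476 in KO, the haem carrier Hpx 1439 and 15922, the copper protein Cp 10875 and 26229, and complement C3 18721 and 44656. Selenop, a selenium carrier of plasma outside that list, averaged 8988 normalized counts in WT and 32055 in KO. The thyroid hormone carrier Ttr was 7.21 ± 0.09 (log2) higher, the clotting genes Fga and Fgb 4.71 ± 0.14 and 4.25 ± 0.05, and the complement activator gene Cfb 4.69 ± 0.05. The antitrypsin genes Serpina1a, Serpina1b, Serpina1c and Serpina1d were 3.54, 2.59, 3.78 and 2.62 higher and Serpina1e -1.10 ± 0.10 (log2), though these near-identical copies can share reads. Many proteins of the mature hepatocyte stayed at the edge of detection in both genotypes. Serpinc1 and Ahsg had fewer than 8 counts in every library, and the coagulation genes F9, F12 and Plg were at 0 in all 8 libraries.

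Promoters were examined because these genes moved together. RefSeq (GRCm38.p6) gave a promoter, from 250 bases before to 50 after the annotated start, for 32 of the 43 plasma protein and lipoprotein genes at least 2-fold higher in KO. A gene with several starts counted once, and each motif was searched on both strands of the 300 bases. TATAAA (the TATA box) was in 9 of the 32 (28.1%) and in 9.11% of the promoters of all tested genes. TGANTCA (AP-1) was in 28.1% and 6.82%, GGAATG (TEAD) in 28.1% and 14.8%, CCAAT in 37.5% and 43.2%, and CAAAGTCCA (HNF4) in none and 0.501%. Among all genes at least 2-fold higher in KO, CAAAGTCCA was in 1.27% and TATAAA in 14.6% of promoters. Among those at least 2-fold lower the shares were 0.496% and 12.2%. At 16-fold or more, 140 of the higher and 168 of the lower genes had a promoter. CAAAGTCCA was in only 6 (4.29%) and 1 (0.595%) of these, and TATAAA in 18.6% and 17.3%. These shares are descriptions without a test, and a match is not a binding site. The 250 bases before the start of 3 genes are shown, on the strand of the gene, because all 3 genes were more than 10-fold higher in KO, with TATAAA or CCAAT on either strand in capitals. TATAAA begins 60 bases before the RefSeq start of Apob and 29 before that of Abca1, whose values follow. GENCODE vM21 places the gene starts of Apob and Alb elsewhere, at 7977648 and 90460897, so distances to those starts differ. The promoter of Alb, whose values are given above, holds no TATAAA. It holds CCAAT 56 bases before the start, and the capitals ATTGG at 15 bases are the same motif on the opposite strand.
Alb, chr5:90460620-90460869, plus strand: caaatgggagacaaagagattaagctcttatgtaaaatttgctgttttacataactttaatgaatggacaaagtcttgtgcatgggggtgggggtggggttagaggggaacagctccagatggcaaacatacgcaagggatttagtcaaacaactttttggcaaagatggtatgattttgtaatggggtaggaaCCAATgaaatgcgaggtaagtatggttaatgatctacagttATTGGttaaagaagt
Apob, chr12:7977427-7977676, plus strand: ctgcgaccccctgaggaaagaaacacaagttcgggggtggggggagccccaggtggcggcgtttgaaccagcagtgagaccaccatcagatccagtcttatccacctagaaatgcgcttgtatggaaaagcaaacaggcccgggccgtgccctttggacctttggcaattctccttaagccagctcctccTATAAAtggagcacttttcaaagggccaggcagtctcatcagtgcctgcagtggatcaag
Abca1, chr4:53159896-53160145, minus strand: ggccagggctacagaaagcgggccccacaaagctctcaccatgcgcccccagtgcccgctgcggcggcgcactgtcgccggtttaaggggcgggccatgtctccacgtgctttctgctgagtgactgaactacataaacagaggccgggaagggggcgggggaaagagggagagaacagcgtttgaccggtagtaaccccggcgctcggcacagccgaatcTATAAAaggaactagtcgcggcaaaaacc

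Genes that build and clear lipoproteins were more often higher than lower in KO. Of 29 tested members of that list, with 11 below the filter, 18 were higher and 9 lower. Here too a gene could pass through the KO libraries alone, so the counts describe these 29 genes only. Apoe, a ligand of lipoprotein receptors, stood at 159, 117, 132 and 116 normalized counts in the WT libraries and 29886, 28928, 29490.1 and 28204 in the KO libraries, a log2 fold change of 7.80 ± 0.08. Apob, the backbone of very low density lipoproteins, stood at 666, 669, 641 and 676 normalized counts in the WT libraries and 28333, 30699, 32081 and 30203 in the KO libraries (log2 fold change 5.51 ± 0.08). Every KO library lay far above every WT library for both. Apoc1 had 2 reads over the 4 WT libraries and 4242 over the KO libraries, a ratio of 2600 (95% interval 719 to 21500, for counting error only), and Apoc2 was 7.54 ± 0.41 (log2) higher. Mttp, which loads lipid onto Apob, averaged 175 normalized counts in WT and 368 in KO (log2 fold change 1.07 ± 0.07), and the cholesterol exporter Abca1 54.3 and 792 (3.84 ± 0.09). The genes of 2 lipases and a transfer protein were lower. Lipoprotein lipase (Lpl) was -4.36 ± 0.19 (log2), the endothelial lipase Lipg -2.79 ± 0.17 and the phospholipid transfer protein Pltp -2.15 ± 0.06.

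The transcription factors of the liver followed with smaller differences. Of 36 tested factors 25 were higher and 8 lower (median 0.72). Hnf4a, a nuclear receptor that drives hepatocyte genes, stood at 1749, 1891, 1938 and 1979 normalized counts in the WT libraries and 9745, 10185, 9986 and 10072 in the KO libraries, without overlap (log2 fold change 2.40 ± 0.03). Onecut2 stood at 258, 257, 241 and 253 normalized counts in the WT libraries and 6138, 7356, 7579.6 and 6548 in the KO libraries (log2 fold change 4.76 ± 0.10), and Prox1, a homeobox factor of hepatoblasts, at 166, 160.2, 138 and 152 normalized counts in the WT libraries and 2302, 2316, 2464 and 2135 in the KO libraries (3.89 ± 0.06). Both were many times higher in every KO library. The fatty acid receptor gene Ppara averaged 15 normalized counts in WT and 156 in KO (log2 fold change 3.30 ± 0.19), the oxysterol receptor gene Nr1h3 191 and 1091 (2.51 ± 0.06), and Creb3l3, a membrane-bound factor of the fasted liver, 5.77 and 162 (4.63 ± 0.25). Cebpa was 1.44 ± 0.12 (log2) higher, whereas Foxa1 was -1.07 ± 0.10, Tbx3 -3.52 ± 0.33 and Lhx2 -4.63 ± 0.33. The related factor gene Cebpb was not called (log2 fold change -0.04 ± 0.08).

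**Figure D2:**
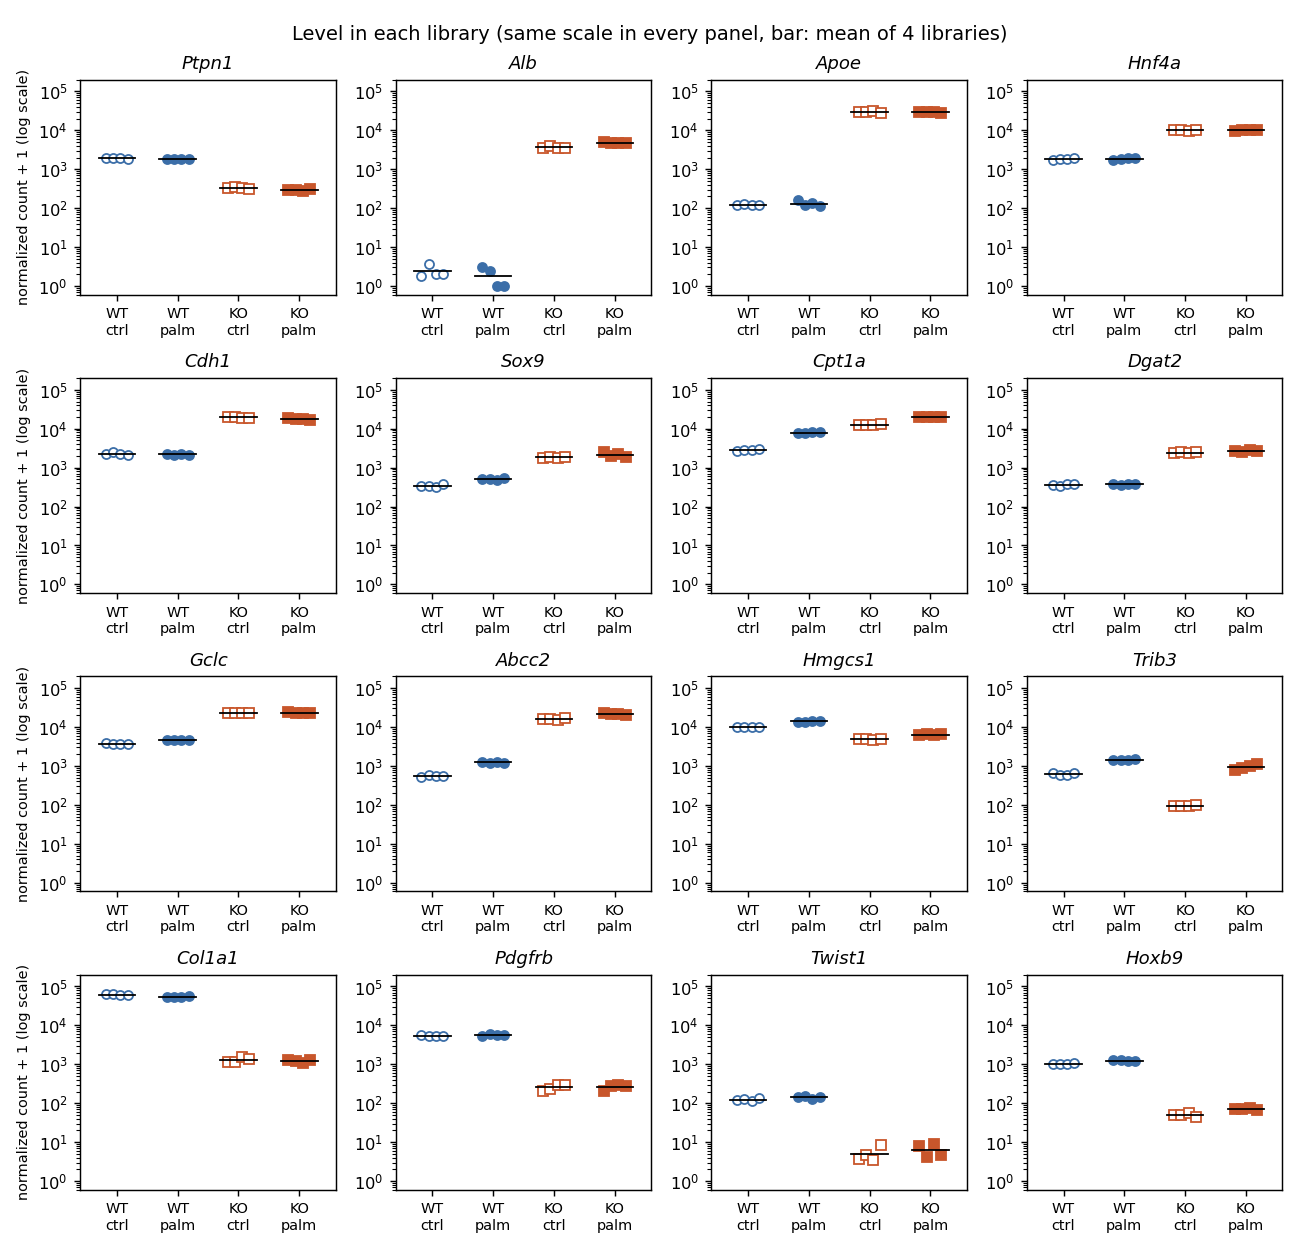
Normalized count plus 1 in each of the 16 libraries for 16 genes, on a log scale that is the same in every panel. Open symbols are control and filled symbols palmitate libraries, circles WT and squares KO, and bars are means of 4 libraries. Alb lies near 1 in the WT palmitate libraries and between 4702 and 4985 in the KO palmitate libraries, while Col1a1 and Pdgfrb lie more than 10-fold lower in KO.

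Progenitor and biliary genes were mixed. Of 33 tested members 23 were higher in KO and 9 lower, 6 and 7 of them at least 2-fold. Sox9, the factor that marks oval cells, stood at 499, 505, 477 and 532 normalized counts in the WT libraries and 2451, 2019, 2277 and 1927 in the KO libraries (log2 fold change 2.10 ± 0.06), with every KO library above every WT library. Spp1, the secreted phosphoprotein osteopontin of bile duct cells, stood at 90898, 82885, 84661 and 84599.6 normalized counts in the WT libraries and 210876, 180905, 189592 and 187484 in the KO libraries (log2 fold change 1.16 ± 0.04). The keratin genes Krt19, Krt8 and Krt18 were 0.62, 0.32 and 0.29 higher on the log2 scale, and Krt7 0.11 ± 0.03, or -0.048 after quantile normalization. Lgr5, a receptor of WNT-responsive stem cells, averaged 28.9 normalized counts in WT and 157 in KO (log2 fold change 2.41 ± 0.15). The ciliary gene Pkhd1 was 1.53 ± 0.04 (log2) higher. Among the lower genes were the chloride channel gene Cftr at -1.96 ± 0.13 (log2) and the water channel gene Aqp1 at -1.41 ± 0.06. The laminin receptor chain Itga6 was -1.99 ± 0.05 (log2) and Tspan8 -1.08 ± 0.04. Cd24a was not called (log2 fold change 0.02 ± 0.03).

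Genes that PTP1B acts on or sits beside were next examined. All 28 tested genes of that list were called, 20 higher and 8 lower, and 1 rose and 4 fell at least 2-fold, which is 17.9% of them beside 22.3% of all tested genes. The insulin receptor gene Insr stood at 1752, 1904, 1929.6 and 1918 normalized counts in the WT libraries and 2981, 3199, 3047 and 2701 in the KO libraries (log2 fold change 0.67 ± 0.04). Its adaptor genes Irs1 and Irs2 were 0.79 ± 0.05 (log2) and 0.61 ± 0.03 higher, Igf1r 0.51 ± 0.04 and the kinase gene Jak2 0.58 ± 0.03. Each of these rises was under 2-fold. Ctnnb1, which encodes the adhesion and WNT protein beta-catenin, stood at 22482, 22757, 22906 and 22694 normalized counts in the WT libraries and 57912, 51869, 51571 and 50514 in the KO libraries (log2 fold change 1.22 ± 0.03). The receptor genes Pdgfrb and Pdgfra were -4.45 ± 0.12 (log2) and -4.04 ± 0.19, and the caveolar coat gene Cav1 -2.10 ± 0.04. In the wider insulin and IGF pathway 29 of 47 tested genes were higher and 15 lower. The secreted members were farthest apart. Igfbp2, a carrier of IGFs made by hepatocytes, averaged 1.4 normalized counts in WT and 273 in KO (log2 fold change 7.02 ± 0.34), Igf2 1.82 and 86.5 (5.06 ± 0.29), and Igfbp6 94.2 and 5 (-4.05 ± 0.24). Among its enzymes Akt2 was 0.40 ± 0.03 (log2) higher and Akt1 differed by -0.30 ± 0.03.

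The other tyrosine phosphatases had no shared direction. Of 28 tested classical tyrosine phosphatases, Ptpn1 included, 12 were higher, 11 lower and 5 not called. Ptpn2, the closest relative, was -0.24 ± 0.04 and Ptpn11, which encodes SHP2, was not called (log2 fold change 0.04 ± 0.03). Ptpn11 was called lower after rescaling to the same total (log2 fold change -0.058) and after quantile normalization (-0.099). Ptprn, a vesicle protein without phosphatase activity, stood at 748, 805, 773 and 841 normalized counts in the WT libraries and 2919.9, 3121, 2865 and 3123 in the KO libraries (log2 fold change 1.92 ± 0.04). Ptpn13 was 1.53 ± 0.04 (log2) and the junctional receptor Ptprf 1.37 ± 0.03 higher, without overlap. Lower genes were Ptpn22 at -3.62 ± 0.22 (log2), Ptpn6 (SHP1) at -1.18 ± 0.06, Ptprb at -1.27 ± 0.03 and Ptprg at -1.11 ± 0.03. Among cytokine receptor, JAK, STAT and SOCS genes 17 of 40 were higher and 14 lower. The feedback inhibitor gene Socs6 was 1.49 ± 0.03 (log2) higher, Socs1 -2.70 ± 0.32 and Cish -0.67 ± 0.07, and the receptor genes Il13ra1 and Epor were -3.27 ± 0.23 and -2.16 ± 0.19. Stat5b and Stat6 were 0.56 ± 0.04 and 0.55 ± 0.03 higher, while Jak1 (log2 fold change -0.03 ± 0.03) and the shared receptor gene Il6st (-0.04 ± 0.03) were not called. Both were called lower after rescaling to the same total (log2 fold changes -0.13 and -0.14) and after quantile normalization (-0.16 and -0.19). The medians of the phosphatase and the JAK-STAT lists, 0.01 and 0.00, changed sign with the scaling.

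Most genes that burn fatty acids were higher in KO, the majority by less than 2-fold. Of 40 tested genes of mitochondrial oxidation and ketone synthesis 31 were higher and 5 lower, 6 and 0 of them at least 2-fold (median 0.48). Cpt1a, the gate for fatty acid entry into mitochondria, stood at 7758, 7776, 8026 and 8036 normalized counts in the WT libraries and 20343, 20376, 20588 and 19598 in the KO libraries (log2 fold change 1.36 ± 0.03). The dehydrogenase genes Acadm, Acadl and Acadvl were 0.94 ± 0.03 (log2), 0.66 ± 0.03 and 0.59 ± 0.03 higher. Bdh1, which makes 3-hydroxybutyrate, stood at 3, 2.17, 4.3 and 6.6 normalized counts in the WT libraries and 1128, 1289, 1313 and 1324 in the KO libraries (log2 fold change 8.05 ± 0.30), Acat1 was 1.56 ± 0.03 higher, while Oxct1, which uses ketones, was -0.33 ± 0.03. The proton carrier Ucp2 averaged 30.9 normalized counts in WT and 141 in KO (log2 fold change 2.16 ± 0.16). Peroxisomal genes went the same way for 37 of 47 tested, with 8 lower. The thiolase Acaa1b stood at 4, 2.9, 5.16 and 4.12 normalized counts in the WT libraries and 1791, 1809, 1852 and 1800.3 in the KO libraries (log2 fold change 8.51 ± 0.39), Acox2, an oxidase for bile acid precursors, averaged 26.6 and 601 (4.45 ± 0.14), and Pipox 10.4 and 222 (4.30 ± 0.18). The carnitine transferase Crot and catalase (Cat) were 2.57 ± 0.04 (log2) and 2.42 ± 0.03 higher.

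Genes that store fat were also mostly higher. In the triglyceride list 26 of 35 tested genes were higher and 5 lower (median 0.69). Dgat2, which closes triglyceride synthesis, stood at 376, 365, 379 and 379 normalized counts in the WT libraries and 2708, 2584, 2761 and 2606 in the KO libraries (log2 fold change 2.83 ± 0.04), without overlap, while its counterpart Dgat1 was not called (-0.03 ± 0.04). Cideb, a droplet protein that lipidates lipoproteins, averaged 95.9 normalized counts in WT and 1393 in KO (log2 fold change 3.85 ± 0.09). The droplet coats Plin2 and Plin4 were 0.86 ± 0.03 (log2) and 3.18 ± 0.08 higher. Hsd17b13 had 2 reads in WT and 227 in KO, a ratio of 139 (95% interval 38.1 to 1160), and Pnpla3 was 3.64 ± 0.41 (log2) higher. The acid lipase Lipa was 1.51 ± 0.04 (log2) higher and monoglyceride lipase Mgll -2.65 ± 0.22. Among genes that take up and activate fatty acids 15 of 30 were higher and 9 lower. The thioesterase Acot1 stood at 268, 268, 253 and 272 normalized counts in the WT libraries and 4914, 4966, 5480.1 and 5177 in the KO libraries (log2 fold change 4.27 ± 0.08), Acss3 was 3.55 ± 0.21 and the ligase Acsl4 1.05 ± 0.04 higher, and the carrier Fabp4 averaged 193 and 15.3 (-3.66 ± 0.20).

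Genes of fatty acid synthesis went both ways, and most genes of cholesterol synthesis were lower. Of 34 tested genes of fatty acid synthesis 15 were higher and 14 lower. Elovl6, which lengthens palmitate to stearate, stood at 3847, 3859, 3888 and 3829.6 normalized counts in the WT libraries and 793, 785, 795 and 802 in the KO libraries (log2 fold change -2.28 ± 0.03). The very long chain elongase Elovl4 and the dehydratase Hacd4 were -3.18 ± 0.57 (log2) and -3.36 ± 0.35. Elovl2, which makes long polyunsaturated chains, had 1 read in WT and 290 in KO, a ratio of 355 (95% interval 63.3 to 14100). Fatty acid synthase (Fasn) was -0.53 ± 0.04, the desaturases Scd1 and Scd2 were 0.19 ± 0.03 and 0.38 ± 0.02 higher, and malic enzyme Me1 averaged 10591 normalized counts in WT and 29064 in KO (log2 fold change 1.46 ± 0.02). The call of Scd2 was lost after quantile normalization, at a log2 fold change of 0.028. In the cholesterol list 21 of 29 tested genes were lower and 4 higher (median -0.59). Hmgcs1, the first committed step, stood at 13588, 13829, 14222 and 14099 normalized counts in the WT libraries and 6347, 6479, 6291 and 6471 in the KO libraries (log2 fold change -1.12 ± 0.03). Idi1 was -1.10 ± 0.03 (log2), Mvd -1.22 ± 0.04 and the lanosterol demethylase gene Cyp51 -1.66 ± 0.03. The 2 genes at least 2-fold higher use cholesterol instead of making it. Cyp27a1, a bile acid enzyme, averaged 0.828 normalized counts in WT and 187 in KO (log2 fold change 6.76 ± 0.28) and Soat2, which esterifies cholesterol, 228 and 595 (1.38 ± 0.07).

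Ceramide genes, the other route for palmitate, went both ways. Of 38 tested 21 were higher and 15 lower. The serine palmitoyltransferase genes Sptlc1 and Sptlc2, which start the pathway, were 0.33 ± 0.03 (log2) and 0.54 ± 0.05 higher. Among ceramide synthases Cers2 and Cers6 were 0.63 ± 0.03 (log2) and 0.74 ± 0.03 higher, while Cers4 and Cers5 were -3.65 ± 0.39 and -0.63 ± 0.03. The sphingomyelinase gene Smpd3 stood at 1046, 1109, 1073 and 1082 normalized counts in the WT libraries and 2776, 2796, 2724 and 2802 in the KO libraries (log2 fold change 1.36 ± 0.03). Ugcg, which turns ceramide into glucosylceramide, stood at 2304, 2062, 2007 and 1978 normalized counts in the WT libraries and 771, 628, 658 and 713 in the KO libraries (log2 fold change -1.59 ± 0.06), and the groups did not overlap for either. The sphingosine kinase gene Sphk1 was -1.88 ± 0.07 (log2) and the phosphatase gene Sgpp2 -2.52 ± 0.17, while Sgpp1 was 1.03 ± 0.06 higher.

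**Figure D3:**
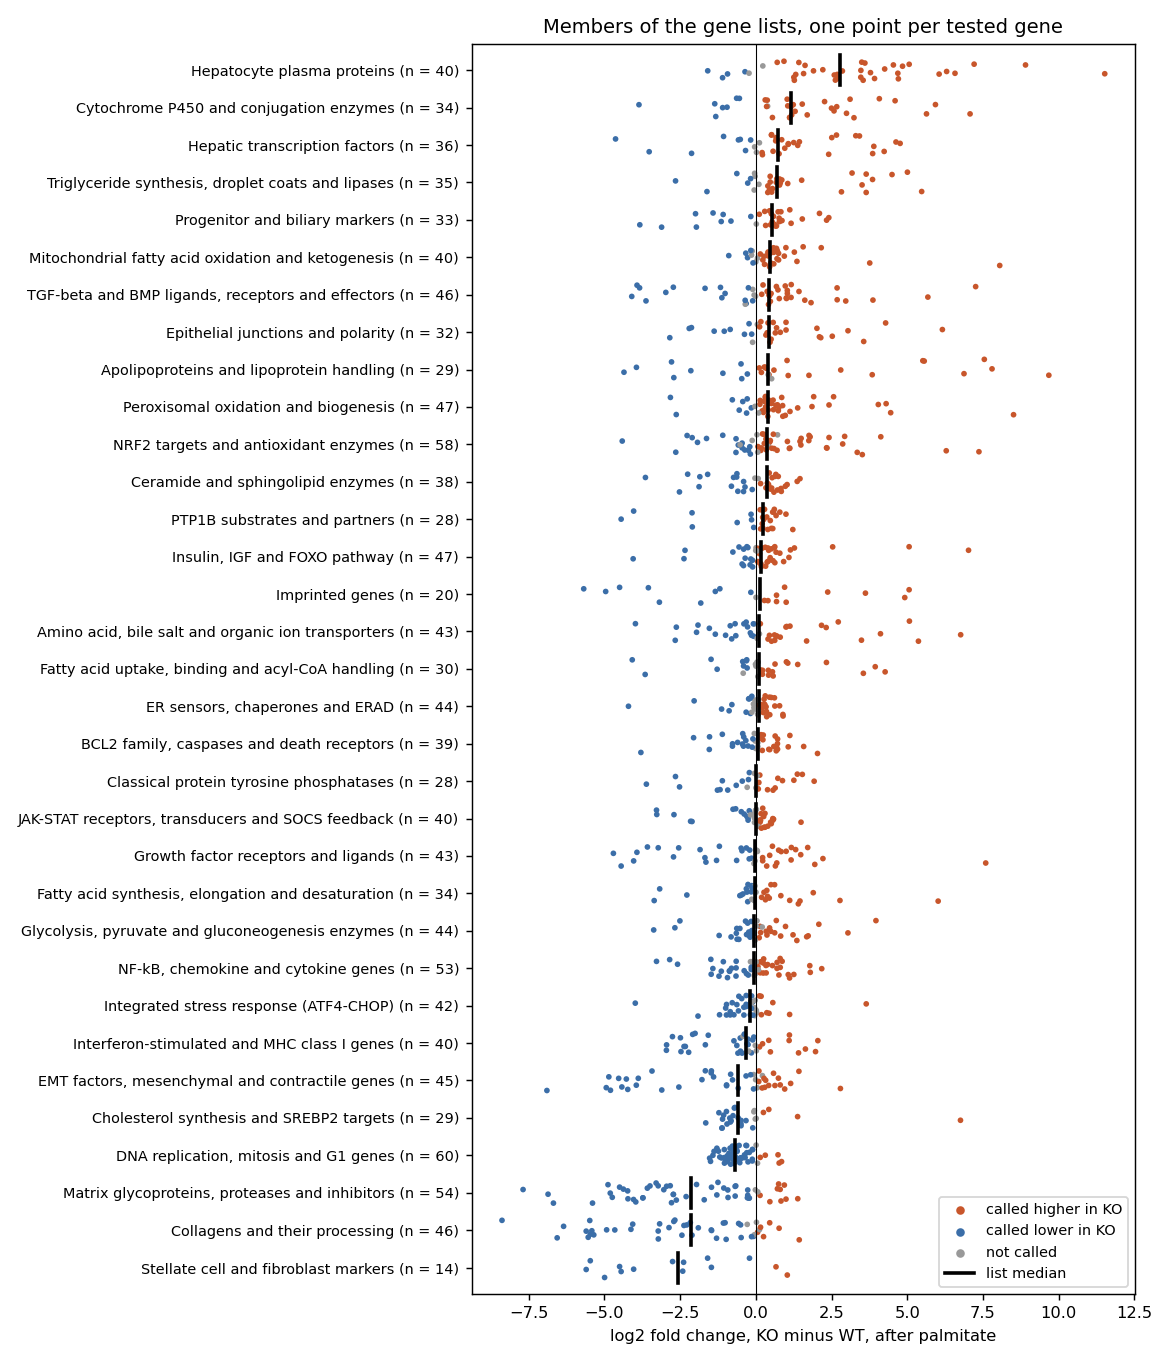
Each row is a gene list and each point 1 tested member, placed by its log2 fold change, KO minus WT, after palmitate. Orange points were called higher, blue lower and grey not called, and the black bar is the list median. Medians run from -2.58 for stellate cell and fibroblast markers to 2.78 for plasma proteins.

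The genotype difference after palmitate was close to that without it. Of the 3392 genes at least 2-fold apart after palmitate, 3041 were at least 2-fold apart in the same direction in control, which is 89.7% of them and 90% of the 3378 genes apart in control, and 0 were apart in the opposite direction. The 2 comparisons share no library. The difference between them, tested in limma, was called for 1508 of 15239 genes (9.9%), 638 positive (4.19%) and 870 negative (5.71%). The gap between the genotypes was wider after palmitate for 661 of these genes and narrower for 847.

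**Figure D4:**
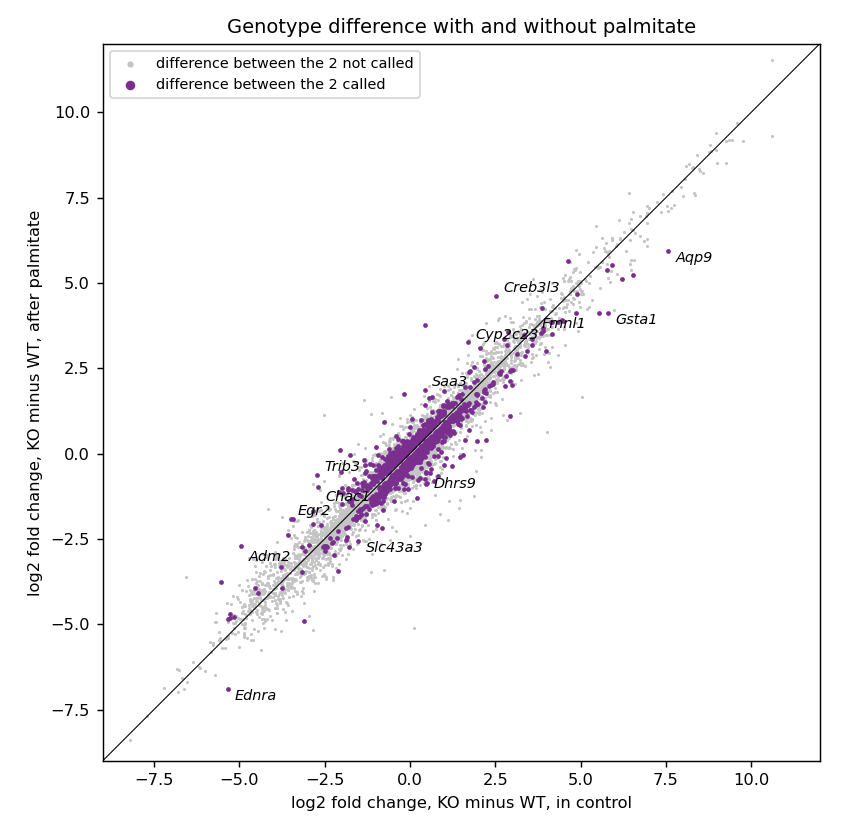
Each point is 1 tested gene, with its log2 fold change, KO minus WT, in control on the horizontal and after palmitate on the vertical axis. The diagonal marks equal differences. Purple points are the 1508 genes whose 2 differences were called unequal, among them Trib3 and Creb3l3 above the line and Aqp9 and Ednra below it.

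Stress response genes made up the list with the largest share of changed gaps, 61.9% of its tested genes beside 9.9% of all. Of 42 tested genes of the integrated stress response, by which ATF4 answers amino acid and endoplasmic reticulum stress, 8 were higher and 27 lower in KO after palmitate, and 26 had a different gap than in control. Trib3, a pseudokinase that damps AKT, stood at 1389.7, 1422, 1446 and 1545 normalized counts in the WT libraries and 783, 882, 994 and 1124 in the KO libraries (log2 fold change -0.63 ± 0.08). In control the means were 624 in WT and 94.6 in KO (log2 fold change -2.71 ± 0.08), so the gap was 2.08 ± 0.11 smaller after palmitate (adjusted p = 3.97e-11, limma). Chac1, which degrades glutathione, averaged 746 normalized counts and 384 after palmitate and 310.5 and 47.5 in control (change of the log2 gap 1.73 ± 0.14). Adm2, a secreted peptide outside that list, averaged 122 normalized counts and 18 against 103 and 3.23 in control (change of the log2 gap 2.22 ± 0.60). The factor gene Atf4 was -0.73 ± 0.03 (log2) and Nupr1 -1.20 ± 0.05 after palmitate, while Ddit3, which encodes CHOP, was 0.17 ± 0.04 higher, but not called with every library at the same total (adjusted p of 0.126, limma). Enzymes and carriers of amino acids held the widest differences. Aldh1l2, a mitochondrial folate enzyme, stood at 1765, 1861, 1958 and 1781 normalized counts in the WT libraries and 118, 138, 122 and 89.2 in the KO libraries (log2 fold change -3.98 ± 0.12), and the glutamine carrier Slc1a5 at 1754, 1825, 1891 and 1850.4 normalized counts in the WT libraries and 481, 478, 510.4 and 474 in the KO libraries (-1.91 ± 0.04). Cbs, which makes cystathionine from homocysteine, ran the other way at 240.3, 271, 249 and 271 normalized counts in the WT libraries and 3234, 3215, 3202 and 3273 in the KO libraries (log2 fold change 3.64 ± 0.05).

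Chaperone and unfolded protein response genes of the endoplasmic reticulum were seldom 2-fold apart. Of 44 tested genes 24 were higher and 11 lower, and 3 were at least 2-fold apart. The stress factor gene Xbp1 and the protein clearance gene Herpud1 were 0.45 ± 0.04 (log2) and 0.63 ± 0.04 higher. The chaperone gene Hspa5 was 0.08 ± 0.03 (log2) higher, and -0.022 after rescaling to the same total. In control Hspa5 was lower in KO, at -0.39 ± 0.03, a change of the log2 gap of 0.46 ± 0.04 (adjusted p = 2.75e-08, limma). The 3 with a 2-fold difference were lower, namely Creb3l1, a factor for genes of matrix secretion, at -4.21 ± 0.12 (log2), the disulfide isomerase Pdia5 at -2.04 ± 0.08 and the vesicle coat gene Sec24d at -1.13 ± 0.06. The list's median of 0.09 became -0.01 after rescaling to the same total.

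Genes of glutathione and detoxification were more often higher than lower in KO. Of 58 tested NRF2 targets and antioxidant genes 35 were higher, 19 at least 2-fold, and 17 lower. Gclc, the catalytic chain of the ligase that opens glutathione synthesis, stood at 4665, 4584, 4714 and 4728 normalized counts in the WT libraries and 24511, 22815, 23646 and 23298 in the KO libraries (log2 fold change 2.33 ± 0.03), with Gclm 1.75 ± 0.03 and Gss 1.79 ± 0.04 higher. The ferritin gene Fth1 stood at 34467, 33361, 32150.2 and 33663 normalized counts in the WT libraries and 116288, 109391, 111794 and 111299 in the KO libraries (log2 fold change 1.75 ± 0.03) and Ftl1 averaged 53279 and 115914 (1.12 ± 0.03). The glutathione transferase Gsta3 stood at 53.1, 59.4, 43 and 36.3 normalized counts in the WT libraries and 8727, 7482, 7799.8 and 7792 in the KO libraries (log2 fold change 7.37 ± 0.12), and Gstm4 had 1 read in WT and 362 in KO, a ratio of 444 (95% interval 79.1 to 17600). Not all NRF2 targets moved this way, since Nqo1 averaged 172 normalized counts in WT and 27.1 in KO (log2 fold change -2.64 ± 0.15), Txnrd1 was only 0.34 ± 0.03 higher, and the reticulum peroxidase Gpx7 was -4.41 ± 0.18. Among cytochrome P450 and conjugation genes 34 of 54 passed the filter, 26 higher and 7 lower. Passing was possible through the KO libraries alone, so this split describes the 34 genes and not the list. Cyp2j5, a P450 that oxidises arachidonic acid, stood at 3, 3.62, 2.58 and 0.82 normalized counts in the WT libraries and 466, 428, 455 and 432 in the KO libraries (log2 fold change 7.07 ± 0.42), while Cyp2c68, outside that list, averaged 1.25 and 881 (8.75 ± 0.33), Cyp1a1 3.54 and 225 (5.63 ± 0.18) and the sulfotransferase Sult1a1 1.62 and 124 (5.93 ± 0.40). Cyp1b1 was -3.86 ± 0.06 (log2). The main P450 genes of adult liver, such as Cyp2e1 and Cyp3a11, did not pass the filter.

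Among membrane carriers 21 of 43 tested were higher and 19 lower. Abcc2, which pumps conjugates into bile, stood at 1242, 1227, 1244 and 1207 normalized counts in the WT libraries and 22520.2, 21045, 21569 and 20205 in the KO libraries (log2 fold change 4.11 ± 0.03). Slc16a7, a monocarboxylate carrier, averaged 7.27 normalized counts in WT and 277 in KO (log2 fold change 5.07 ± 0.20) and Slc22a18 1.06 and 83.3 (5.37 ± 0.27). The sphingosine phosphate exporter Spns2, outside that list, averaged 7752 normalized counts in WT and 29191 in KO (log2 fold change 1.91 ± 0.02). The bile salt importers Slc10a1 and Slco1b2 of hepatocytes did not pass the filter. In the glycolysis and gluconeogenesis list 18 of 44 were higher and 22 lower. The liver pyruvate kinase Pklr was 1.68 ± 0.03 (log2) higher and Aldoc 2.08 ± 0.10, whereas the enolase Eno2 and the lactate dehydrogenase Ldhb were -2.67 ± 0.09 and -3.37 ± 0.27. The gluconeogenic genes G6pc, Pck1 and Fbp1 did not pass.

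Inflammatory genes went both ways. Of 53 tested NF-kB, chemokine and cytokine genes 22 were higher and 21 lower. A gap different from control was called for 23 of them (43.4%), beside 9.9% of all tested genes. The chemokine Ccl7 stood at 884, 752, 795 and 823 normalized counts in the WT libraries and 4580.4, 3449.9, 3294 and 3488 in the KO libraries (log2 fold change 2.17 ± 0.10) and Ccl2 averaged 11664 and 18928 (0.70 ± 0.06). The receptor gene Tlr4, which also senses bacterial lipid, stood at 536, 548, 551 and 517 normalized counts in the WT libraries and 97.7, 94.5, 81.2 and 82.7 in the KO libraries (log2 fold change -2.59 ± 0.09), Cx3cl1 was -2.85 ± 0.08 and Tlr2 -1.22 ± 0.05. The acute phase gene Saa3, outside that list, averaged 20.8 normalized counts and 78.7 after palmitate and 58.4 and 79.2 in control, a change of gap of 1.43 ± 0.21 (log2). Of 40 tested interferon-stimulated and MHC class I genes 25 were lower, among them the antiviral genes Isg15 (log2 fold change -2.95 ± 0.27), Ifi27 (-2.95 ± 0.09) and Rsad2 (-2.37 ± 0.26), the GTPase Gbp2 (-2.33 ± 0.11) and the MHC activator Nlrc5 (-2.75 ± 0.28). The 10 higher genes included the class I genes H2-K1 at 1.97 ± 0.03 (log2) and H2-T23 at 2.05 ± 0.11, a family whose copies can share reads. Among death genes 18 of 39 were higher and 16 lower. The death receptor Fas stood at 220.3, 183, 217 and 210.4 normalized counts in the WT libraries and 858, 826, 901 and 827 in the KO libraries (log2 fold change 2.04 ± 0.06). Ripk3, the kinase of necroptosis, stood at 295, 306, 319 and 285 normalized counts in the WT libraries and 24.4, 18.5, 24.5 and 16.7 in the KO libraries (log2 fold change -3.80 ± 0.18), Bok was -2.06 ± 0.04 and Bmf 1.58 ± 0.06 higher.

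Most collagens and other matrix genes were lower in KO. Of 46 tested collagen and collagen-processing genes 36 were lower, 30 at least 2-fold, and 6 higher (median -2.14). Col1a1, a chain of type I collagen, stood at 52186, 53807, 52581 and 55488 normalized counts in the WT libraries and 1256, 1191, 1106 and 1285 in the KO libraries (log2 fold change -5.47 ± 0.09). Col1a2 and Col3a1 averaged 31137 and 31435 normalized counts in WT and 639 and 332 in KO (log2 fold change -5.60 ± 0.09 and -6.56 ± 0.09), and Col6a1 21601 and 1241 (-4.13 ± 0.06). Col6a5 had no read in KO and 1576 in WT, at least 429-fold lower against 3 reads over the KO libraries. Several genes for enzymes that finish collagen, and for a chaperone of it, were lower too. Lox, which crosslinks it, stood at 1911, 1694, 1780.0 and 1775 normalized counts in the WT libraries and 25.4, 21.7, 23.4 and 14.9 in the KO libraries (log2 fold change -6.35 ± 0.29), the propeptidase Adamts2 was -5.42 ± 0.07, the hydroxylase P4ha3 -4.66 ± 0.41 and the chaperone Serpinh1 -3.22 ± 0.03. Basement membrane collagens differed little, with Col4a1 at 0.06 ± 0.03 (log2) (-0.042 after rescaling to the same total), Col4a2 at -0.07 ± 0.03 and Col18a1 at 0.15 ± 0.03. The calls of Col4a1 and Col4a2 were lost, with no change of sign, under 7 and 10 alternatives, for Col4a2 among them TMM scaling (adjusted p = 0.0518, limma). Among 54 tested matrix glycoproteins and proteases 43 were lower, 33 at least 2-fold, and 9 higher. Lama4, a laminin chain of mesenchymal and vessel walls, stood at 1008, 984, 948 and 959 normalized counts in the WT libraries and 16.3, 11.9, 2.22 and 10.2 in the KO libraries (log2 fold change -6.68 ± 0.45), while the laminin chains Lama5 and Lamb2 were -0.28 ± 0.05 and 0.83 ± 0.03. The metalloproteinase Mmp2 stood at 344, 359, 361 and 369 normalized counts in the WT libraries and 0, 0, 2.22 and 1.86 in the KO libraries (log2 fold change -7.69 ± 0.42). Mmp3 had 1 read in KO and 660 in WT, a ratio of 539 (95% interval 96.3 to 21300). Fbn1 was -5.39 ± 0.06 (log2), Postn -4.38 ± 0.12 and fibronectin (Fn1) -0.92 ± 0.05, and outside the list Aspn was -6.29 ± 0.47 and Ptx3 -6.09 ± 0.19.

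Mesenchymal genes were more often lower than higher in KO, and epithelial genes more often higher than lower. Of 45 tested mesenchymal and contractile genes 26 were lower and 15 higher. Twist1, a factor that drives loss of epithelial form, stood at 145, 149, 126 and 145 normalized counts in the WT libraries and 7.12, 3.26, 7.78 and 3.72 in the KO libraries (log2 fold change -4.53 ± 0.26). Prrx1, Snai1 and Snai2 were -4.23 ± 0.14, -3.88 ± 0.24 and -1.48 ± 0.07, while Zeb1 was not called (log2 fold change -0.07 ± 0.04). Zeb1 was called lower after rescaling to the same total (log2 fold change -0.17), after quantile normalization (-0.11), with edgeR (-0.084) and without WT replicate 1 (-0.094). Smooth muscle actin (Acta2) stood at 5643, 5218, 5195 and 5219 normalized counts in the WT libraries and 339, 249, 237 and 279 in the KO libraries (log2 fold change -4.28 ± 0.14), and the fibroblast genes Fap, Cdh11 and Gas1 were -4.86 ± 0.16, -4.80 ± 0.07 and -6.90 ± 0.22. Vimentin (Vim) and Lgals1 differed less, averaging 44215 and 36144 in WT and 25911 and 13909 in KO. Of 32 tested epithelial genes 21 were higher and 9 lower, with 16 of the 48 below the filter, which the KO libraries alone could satisfy. E-cadherin (Cdh1) stood at 2264, 2139, 2190.1 and 2126 normalized counts in the WT libraries and 19361, 17731, 17614 and 17167 in the KO libraries (log2 fold change 3.04 ± 0.04). N-cadherin (Cdh2), the usual mesenchymal counterpart, was also higher (log2 fold change 0.74 ± 0.02). The desmosome genes Dsp and Dsg2 were 2.02 ± 0.05 (log2) and 2.14 ± 0.04 higher, Cdh3 4.28 ± 0.24 and the gap junction gene Gjb1 3.56 ± 0.06, and Gjb2 had no read in WT and 275 in KO, at least 112-fold higher.

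Growth factor and receptor genes went both ways. Of 43 tested genes 18 were higher and 20 lower, 8 and 13 of them at least 2-fold. The receptor for platelet-derived growth factor, Pdgfrb, stood at 5432, 5873, 5753 and 5798 normalized counts in the WT libraries and 206, 278, 296 and 272 in the KO libraries, far lower in every KO library. Its relatives among ligands parted, with Pdgfd averaging 1.03 and 389.7 (log2 fold change 7.59 ± 0.22) and Pdgfa 1655 and 672 (-1.30 ± 0.04). Fgfr1 was -2.55 ± 0.05 (log2), whereas Fgfr2, Fgfr3 and Fgfr4, the receptors of epithelia and hepatocytes, were 1.17 ± 0.03, 1.71 ± 0.04 and 1.95 ± 0.04 higher. The hepatocyte growth factor receptor Met was 0.22 ± 0.03 (log2) higher, Egfr -0.14 ± 0.03 and the collagen receptor Ddr2 -3.93 ± 0.12. Among TGF-beta and BMP genes 28 of 46 were higher and 14 lower. Tgfb3 stood at 152, 153, 163 and 141 normalized counts in the WT libraries and 2141, 2260.1, 2276 and 2255 in the KO libraries (log2 fold change 3.87 ± 0.05), Bmp6 and Bmp7 averaged 2.15 and 1.02 in WT and 142 and 289.7 in KO, and Tgfb1 was -1.17 ± 0.05. The BMP target genes Id1, Id2 and Smad6 were 2.68 ± 0.05 (log2), 1.82 ± 0.03 and 1.62 ± 0.08 higher. The BMP antagonist Grem1 stood at 1814, 1817, 1945 and 1929 normalized counts in the WT libraries and 149.6, 139, 115 and 119.8 in the KO libraries (log2 fold change -3.84 ± 0.14), and Fstl1, Tgfbr3 and Eng were -4.10 ± 0.06, -2.73 ± 0.06 and -3.63 ± 0.08.

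Most genes of the cell cycle were lower in KO. Of 60 tested cell cycle genes 53 were lower and 5 higher, 13 and 0 at least 2-fold (median -0.68). A different gap than in control was called for 27 (45%), beside 9.9% of all tested genes. Orc1, which marks replication origins, averaged 187 normalized counts in WT and 66.4 in KO (log2 fold change -1.53 ± 0.16), Ccne2 379.8 and 134 (-1.50 ± 0.07) and E2f7 548 and 204 (-1.42 ± 0.05). The helicase genes Mcm3 and Mcm4 were -1.04 ± 0.05 (log2) and -1.14 ± 0.04, and the mitotic genes Ccnb1 and Mki67 -0.31 ± 0.03 and -0.38 ± 0.05. The 5 higher genes were the G1 cyclins Ccnd1 (log2 fold change 0.77 ± 0.06) and Ccnd2 (0.31 ± 0.03), their kinase Cdk6 (0.73 ± 0.03), the inhibitor Cdkn1a (0.85 ± 0.03) and Ccnb2 (0.14 ± 0.04, not called after rescaling to the same total). Cdkn2a, an inhibitor often lost in cell lines, averaged 976 normalized counts in WT and 402 in KO (log2 fold change -1.28 ± 0.05).

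Several of the largest differences lay outside these lists. Among the 15 largest rises Prodh2, which degrades hydroxyproline, Zdhhc15, a palmitoyltransferase, and Slc22a30, an organic ion carrier, had no read in WT. Against 3 reads over the 4 WT libraries, the most that a count of 0 allows, the rise was at least 1070-fold for Prodh2, at least 928-fold for Zdhhc15 and at least 742-fold for Slc22a30. Ramp1, a partner of the receptor for calcitonin gene-related peptide, had 2 reads in WT and 1820 in KO, a ratio of 1120 (95% interval 308 to 9210). The death-associated kinase Dapk1 stood at 4, 5.07, 1.72 and 2.47 normalized counts in the WT libraries and 2042, 2492, 2469.8 and 2331 in the KO libraries (log2 fold change 9.14 ± 0.19), and the calcium channel Cacna1h at 3, 2.9, 5.16 and 4.95 normalized counts in the WT libraries and 2582, 2621, 2626 and 2435 in the KO libraries (9.04 ± 0.22). Thsd4, Pamr1, Shtn1 and the adaptor Shc2 were 9.30 ± 0.33 (log2), 9.19 ± 0.46, 9.14 ± 0.34 and 8.85 ± 0.40 higher. Among the 15 largest falls, Lgi2 and the carbonic anhydrase Car6 had no read in KO, with a fall of at least 163-fold for Lgi2 and of at least 116-fold for Car6. The endothelin receptor Ednra had 1 read in KO and 665 in WT, a ratio of 543 (95% interval 97.1 to 21500). Hnmt, which inactivates histamine, Wasf3, an actin regulator, and Nsg1 were -6.38 ± 0.33 (log2), -6.30 ± 0.22 and -6.25 ± 0.22.

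Several genes outside the stress list also differed in their gap. Cpt1a averaged 2867 normalized counts in WT and 12740.2 in KO in control and 7899 and 20226 after palmitate, so that its log2 fold change of 2.15 ± 0.03 in control changed by -0.80 ± 0.04 (adjusted p = 1.85e-13, limma). The mean was higher after palmitate than in control in both genotypes, and the gap narrowed. The droplet coat genes Plin2 and Plin4 had log2 gaps that narrowed, by -0.24 ± 0.04 and -0.40 ± 0.11. Creb3l3, above, had a log2 difference of 2.51 ± 0.25 in control and widened by 2.11 ± 0.35 after palmitate (adjusted p = 0.000213), and Cyp2c23 widened by 1.55 ± 0.33. The immediate early factor Egr2 narrowed, from -3.49 ± 0.30 to -1.90 ± 0.30, and Rsad2 from -3.58 ± 0.26 to -2.37 ± 0.26 (log2). Aqp9, the glycerol channel of hepatocytes, averaged 2.48 normalized counts in WT and 637 in KO in control and 13.8 and 897 after palmitate, so that its gap narrowed from 7.57 ± 0.16 (log2) to 5.93 ± 0.16. Gsta1, Fmnl1, Tex15 and Pilrb1 also narrowed, by -1.68 ± 0.42 (log2), -1.44 ± 0.20, -1.32 ± 0.41 and -1.09 ± 0.35. Slc43a3, a purine carrier, widened in the lower direction by -1.05 ± 0.15 (log2), and so did Ednra, with 1 read in KO, by -1.55 ± 0.37. The retinol dehydrogenase Dhrs9 turned from 0.48 ± 0.15 (log2) in control to -0.58 ± 0.15 after palmitate (adjusted p of the difference = 0.00113).

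Position on the chromosome was also examined, with the groups chosen after the values were seen. In 598 windows of 2 Mb with at least 8 tested protein-coding genes, the 5th and 95th percentiles of the window median of log2 fold changes were -0.45 and 0.42. The lowest median, -2.55 over 12 genes, was that of chromosome 6, 52 to 54 Mb, which holds the Hoxa cluster. Hox genes are transcription factors that record position along the body axis. All 20 tested Hox genes of the 39 in the table, from all 4 clusters, were at least 2-fold lower in KO, with log2 fold changes of -4.38 to -1.50 and a median of -3.59 (-3.09 in control). Hoxb9 stood at 1259.6, 1256, 1253 and 1185 normalized counts in the WT libraries and 68.2, 68.5, 75.6 and 67.8 in the KO libraries (log2 fold change -4.13 ± 0.07) and Hoxb8 at 433, 418, 404 and 466 normalized counts in the WT libraries and 31.5, 22.8, 20 and 15.8 in the KO libraries (-4.24 ± 0.18). No KO library reached a WT library for any of the 20.

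The second lowest window was chromosome 19, 52 to 54 Mb, where all 11 tested genes were lower in KO, 7 at least 2-fold, with a median of -1.51 (-1.46 in control). In order they were Xpnpep1 (log2 fold change -1.51 ± 0.02), Add3 (-1.68 ± 0.04), Mxi1 (-1.67 ± 0.03), Smndc1 (-0.62 ± 0.03), Dusp5 (-0.73 ± 0.09), Nutf2-ps1 (-0.59 ± 0.16), Smc3 (-0.95 ± 0.03), Rbm20 (-2.98 ± 0.08), Pdcd4 (-1.19 ± 0.04), Bbip1 (-2.41 ± 0.03) and Shoc2 (-2.25 ± 0.03). Shoc2, a scaffold of RAF signalling, stood at 30767, 30506, 30921 and 30434 normalized counts in the WT libraries and 6716, 6389, 6352 and 6375 in the KO libraries. The cohesin gene Smc3 averaged 14202 normalized counts in WT and 7347 in KO, Pdcd4 14681 and 6417, and Xpnpep1 15119 and 5304. Adra2a, next to Shoc2 at 54044151 to 54048982, was -2.37 ± 0.29 (log2), but the genes beyond it, Gpam and Acsl5, were 0.78 ± 0.03 and 0.22 ± 0.03. On the same chromosome Pax2, a developmental factor of kidney and other organs, stood at 23498, 25432, 23456 and 25392 normalized counts in the WT libraries and 6658, 6976, 6533 and 6585 in the KO libraries (log2 fold change -1.87 ± 0.03), and its neighbour Slf2 at 46273, 45061, 46460.4 and 45928 normalized counts in the WT libraries and 8469, 7939.7, 7839.9 and 7745 in the KO libraries (-2.52 ± 0.03). Those genes lie at 44756045 to 44837871 and 44931151 to 44983299 (GRCm38), between Hif1an at 0.04 ± 0.03 (log2), which was not called, and Sema4g at 2.00 ± 0.09.

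**Figure D5:**
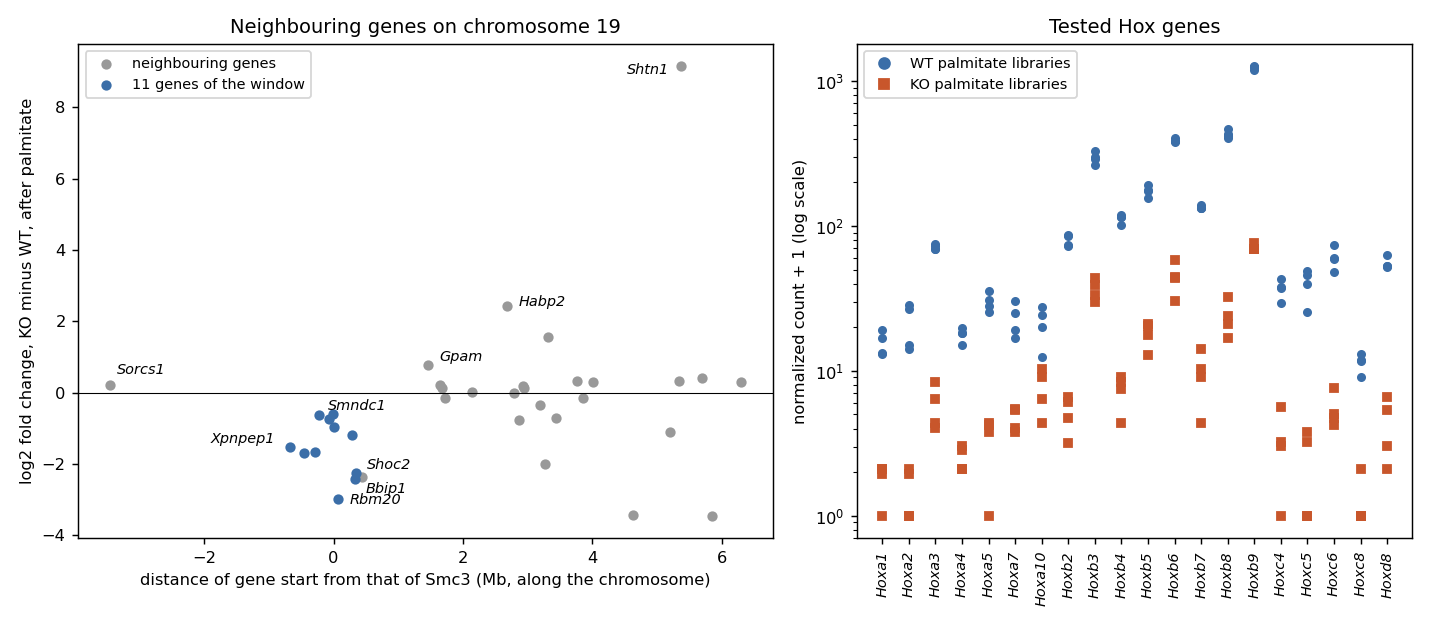
The left panel places the genes of the chromosome 19 window and their neighbours by distance of the gene start from that of Smc3 (Mb) and by log2 fold change, KO minus WT, after palmitate. All 11 genes of the window lie below 0. The right panel gives normalized count plus 1 on a log scale for the 20 tested Hox genes in each palmitate library, with all WT circles above the KO squares.

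The highest window median, 2.08 over 18 genes, was that of chromosome 2, 176 to 178 Mb, a cluster of near-identical zinc finger genes among which reads can be shared. Zfp970 averaged 37.1 normalized counts in WT and 441 in KO there and Zfp973 37.5 and 457. The genes around Ptpn1 on chromosome 2 showed no such block, with 10 of 20 tested higher, 5 lower and 5 not called. The widest there, apart from Ptpn1, were Nfatc2 at 4.25 ± 0.28 (log2), Snai1 at -3.88 ± 0.24 and Tshz2 at 2.15 ± 0.08. Of 20 tested imprinted genes 5 were higher and 8 lower by at least 2-fold. The growth-restraining RNA H19 averaged 97 normalized counts in WT and 1.32 in KO (log2 fold change -5.68 ± 0.45), opposite to Igf2, which shares its control region. Sgce and its neighbour Peg10 were -4.96 ± 0.22 (log2) and -3.55 ± 0.18, and Plagl1 4.92 ± 0.18.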

How the data were processed

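RNA from cultured hepatic progenitor cells was depleted of ribosomal RNA and sequenced in pairs of 76 bases, per the labels' protocols. The authors deposited 1 table of normalized counts, a signal in which each library's gene counts were divided by a size factor. The submitters' processing notes name STAR, RSEM, DESeq2 and limma without versions or roles, and the genome build is not stated; 54587 of 55421 identifiers matched GENCODE vM21 (GRCm38) with their version, from which positions were taken. All values were whole multiples of the library's step within a tolerance of 0.1, which gave back the reads. Genes that reached a value of 10 in 4 or more of the 16 libraries were kept. limma 3.58.1 (R 4.3.3) was fitted to log2(value + 1) over all 16 libraries with 4 group means, a variance trend and robust empirical Bayes, with Benjamini-Hochberg adjustment over all 15239 genes. A call is an adjusted p under 0.05. The pseudocount understates the fold of low genes. The procedure was tested on simulated data in which only a small part of the genes was changed. There limma recovered 74% of 1.5-fold and 92% of 2-fold changes, with 10 false calls over 14891 genes. That setting does not cover data in which most genes differ, as here.

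The comparison, the gene lists and their members were chosen with earlier results of these data known. Genes were named by rules: the 15 largest rises and falls, the 10 highest-level genes at least 2-fold apart in each direction, the 8 largest changes of the gap in each direction (mean of at least 50), and the widest 3 of each list. Some genes and a motif that came under these rules are not reported here. Other genes were named for their role or after their values were seen. Alternatives were pseudocounts of 0.5 and 5, other filters and scalings, a replicate block, a fit on the palmitate libraries alone, edgeR 4.0.16 and DESeq2 1.42.0 on the recovered reads, and leaving out each library. Intervals for ratios of reads are exact binomial (95%) and, like bounds from 3 reads, cover counting error only. Whether identically numbered libraries were handled together is not stated in the labels.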

Additional observations from a re-analysis of the deposited data

Results flagged for a closer look

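The log2 fold change between KO and WT differed after palmitate from that in control by limma, with an adjusted p under 0.05, for the genes in this paragraph, and each value is the difference of the 2 log2 fold changes, palmitate minus control. For genes higher in KO after palmitate, the gap was farther from 0 after palmitate than in control for Akt2 (0.12), Cers2 (0.15), Cers6 (0.14), Creb3l3 (2.11), Cyp1a1 (1.01), Cyp2c23 (1.55), Ddit3 (0.19), Fgb (0.40), Fgfr4 (0.20), Hpx (0.12), Krt19 (0.21), Lgr5 (0.66), Saa3 (1.43) and Scd2 (0.18). The same held for Socs6 (0.17) and Xbp1 (0.19). Among genes higher in KO after palmitate, a gap nearer to 0 than in control was found for Abcc2 (-0.74), Apob (-0.42), Aqp9 (-1.64), Cat (-0.25), Ccnb2 (-0.21), Cd14 (-0.21), Cideb (-0.49), Col18a1 (-0.18), Cpt1a (-0.80), Ctnnb1 (-0.15), Fmnl1 (-1.44), Fth1 (-0.22), Gclc (-0.30) and Gsta1 (-1.68). The same held for H2-K1 (-0.35), Krt18 (-0.26), Krt7 (-0.23), Krt8 (-0.30), Pilrb1 (-1.09), Plin2 (-0.24), Plin4 (-0.40), Serpina1a (-0.30), Smpd3 (-0.14), Sox9 (-0.34), Tex15 (-1.32), Tgfb3 (-0.30) and Txnrd1 (-0.13). The sign turned for Hspa5 (0.46), from -0.39 ± 0.03 in control to 0.08 ± 0.03 after palmitate. It also turned for Ddit3, listed before, and for Dhrs9 and Egfr, listed next. Dhrs9 went from 0.48 ± 0.15 in control to -0.58 ± 0.15 after palmitate. In control Ddit3 (-0.02 ± 0.04) and Egfr (0.04 ± 0.03) were not called. For genes lower in KO after palmitate, the gap was farther from 0 than in control for Ccne2 (-0.38), Cx3cl1 (-0.35), Cyp51 (-0.21), Dhrs9 (-1.05), E2f7 (-0.40), Ednra (-1.55), Egfr (-0.18), Elovl6 (-0.18), Mcm3 (-0.34), Mcm4 (-0.37), Pax2 (-0.27), Pdcd4 (-0.27), Slc1a5 (-0.25) and Slc43a3 (-1.05). Among genes lower in KO after palmitate, a gap nearer to 0 than in control was found for Adm2 (2.22), Atf4 (0.26), Cdh11 (0.36), Chac1 (1.73), Cish (0.40), Ddr2 (0.60), Egr2 (1.59), Fstl1 (0.36), Rsad2 (1.20), Sec24d (0.96), Snai2 (0.51) and Trib3 (2.08). The difference after palmitate itself was not called for Cd24a (-0.16).

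In the genes of this paragraph 1 library stood apart from the other 3 of its group by Dixon's criterion at 95%, which chance meets in about 1 of 20 groups, and each value is that library's normalized count. The text names 319 tested genes with 2 groups each. The highest WT library stood apart for Acss3 (12.3), Acta2 (5643), Adra2a (46.2), Cp (11633), E2f7 (597), Elovl2 (0.82), Elovl4 (74), Fstl1 (3277), Gc (5476), Gstm4 (1), Ramp1 (1.72) and Tspan8 (8395). The highest KO library stood apart for Ccl7 (4580.4), Cd24a (14362), Cftr (43.8), Cyp2c23 (116), E2f7 (221), Ednra (0.93), Gas1 (8.9), Hoxb9 (75.6), Mmp3 (1.11), Pklr (4014), Ppara (186), Selenop (37004), Shoc2 (6716), Trf (26097) and Txnrd1 (9221). The lowest WT library stood apart for Car6 (79.1), Cat (4244), Cdh2 (11438), Hoxb9 (1185), Insr (1752), Lhx2 (49), Scd1 (30092) and Sec24d (826). The lowest KO library stood apart for Abca1 (698), Eng (58.7), Fabp4 (7.12), Gpx7 (6.67), Snai2 (190.2) and Tgfb3 (2141).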

How the results depend on the processing

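The number of genes higher in KO ran from 4823 to 6148 and lower from 5120 to 7034 over 20 alternatives, and the genes at least 2-fold higher from 1084 to 1993 and lower from 1205 to 2722. Under a minimum of 50 counts in 4 libraries 1205 genes were at least 2-fold lower, since fewer genes were tested. Rescaled to the same total, Ptpn1 in KO was 14.8% of WT. With edgeR 5794 genes were higher and 6097 lower, and with DESeq2 5727 and 5868. Leaving out 1 library gave 5642 to 5750 genes higher and 5793 to 5868 lower, 1528 to 1550 and 1836 to 1865 at least 2-fold, 474 to 750 and 688 to 1034 with a positive or negative change of gap, and a Ptpn1 level of 15.6% to 16.1%. Whether replicate numbers paired the libraries was not settled. Correlations of same-numbered palmitate libraries were weak, at -0.03 to 0.06, yet 3 of 4 KO libraries correlated best with their own number. The replicate block gave 5852 genes higher and 5984 lower. It gave 787 genes with a positive and 1033 with a negative change of gap, beside 638 and 870 without it.

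Of 319 named genes 304 kept their direction and call under every alternative. Signs turned for Cd24a (-0.084 rescaled to the same total, -0.091 after quantile normalization, -0.018 to 0.031 with 1 library left out), Cebpb (-0.076 to 0.0046 with 1 library left out), Col4a1 (-0.042 and -0.052 under those scalings), Dgat1 (0.0006 after quantile normalization, -0.0385 to 0.0004 with 1 library left out), Hif1an (-0.055 and -0.053), Hspa5 (-0.022 and -0.021), Krt7 (-0.048 after quantile normalization) and Ptpn11 (-0.058 and -0.099), as log2 fold changes. Without a change of sign, calls were lost for Ccnb2, Ddit3 and Krt7 after rescaling to the same total, Scd2 after quantile normalization (0.028), and Col4a1, Col4a2 and Hspa5 under 7, 10 and 3 alternatives. Calls were gained for Dgat1 (-0.13), Il6st (-0.14), Jak1 (-0.13) and Zeb1 (-0.17) after rescaling to the same total, Il6st (-0.19), Jak1 (-0.16) and Zeb1 (-0.11) after quantile normalization, Zeb1 with edgeR (-0.084) and without WT replicate 1 (-0.094), and Ptpn11 without KO replicate 4 (0.065). Cd24a and Ptpn11, whose signs turned, were also called, lower in KO, after rescaling to the same total and after quantile normalization. The cause was not tested. Genes with few reads in 1 genotype have folds set by a handful of reads.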
